A study of Homo sapiens with 24 samples.

Results

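The receptors of the epidermal growth factor (EGF) family and the ligands that bind them were followed through RNA-seq counts of paired ovarian cancer cell lines. The 10 genes are 4 receptors, EGFR, ERBB2, ERBB3 and ERBB4, and 6 ligands, AREG, EREG, HBEGF, TGFA, BTC and NRG1. They were taken by symbol from the 28277 genes listed in each of the count tables, and all 10 passed the filter on low counts in both tables.

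The study asked how DNA G-quadruplexes (G4s, folded structures of guanine-rich DNA) relate to gene expression when ovarian cancer becomes resistant to chemotherapy. PEO1 and PEO4 are human ovarian adenocarcinoma lines from a single patient, PEO1 from before and PEO4 from after resistance to chemotherapy developed. The first set of 6 untreated libraries holds PEO1 A, whose genotype is labelled wildtype and which lacks functional BRCA2, and PEO4 A, whose BRCA2 is functional through a reversion mutation. The second set of 18 libraries holds PEO1 B, in which BRCA2 function was restored by a spontaneous reversion and which is called PEO1 BRCA+ here, and PEO4 B. Cells of the second set were left untreated or were given 5 µM pyridostatin (PDS), a small molecule that binds G4s, for 2 or 6 h. Every group had 3 libraries. The untreated cells were labelled as given nothing, so no vehicle control stands beside PDS, the pair comes from a single patient, and the medium of the first set also contained sodium pyruvate. Counts came from bulk RNA, so fewer cells of a type and less RNA per cell cannot be told apart.

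Library totals ranged from 18699929 to 63882077 counts. In the second set the untreated libraries were shallower, with 18699929 to 22375644 counts against 33260167 to 43713947 in the treated ones, and ribosomal RNA genes took 0.217 to 0.473% of counts untreated against 0.0163 to 0.0369% after PDS. All 8 markers of ovarian epithelial carcinoma were detected, with summed levels of 4340 to 6648 CPM (counts scaled to a common library size) in the first set and 5105 to 13410 CPM in the second. Of 5 leukocyte markers 4 were under 1 CPM in all libraries, with CD3E at 0, and 3 of 7 fibroblast and 1 of 4 endothelial markers reached 1 CPM in some library of each set. Several of these markers moved with line and treatment in the second set, as given beside the receptors. CPM were scaled by TMM within each set, and the sets were scaled separately, so levels are compared within a set only. A gene was called at an absolute log2 fold change over 1 and an adjusted p under 0.05 in the quasi-likelihood test of edgeR, with p-values adjusted by Benjamini-Hochberg over the 15882 genes tested in the first set or the 17020 in the second. Values after ± are SD over 3 libraries for levels and SE for log2 fold changes. This SE is the absolute log2 fold change divided by the square root of the F statistic of the test. It can understate the error where a group has few counts, as for ERBB4 in PEO1 BRCA+.

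The 4 receptors are tyrosine kinases that span the cell membrane and signal in pairs once a ligand is bound. EGFR binds AREG, TGFA and EGF itself, HBEGF, BTC and EREG bind both EGFR and ERBB4, and NRG1 binds ERBB3 and ERBB4, whereas ERBB2 has no known ligand and pairs with the others. The ligands are made as membrane proteins and cut free by ADAM proteases, and active receptors feed the RAS-MAPK and PI3K-AKT pathways, which drive growth of many epithelial cancers.

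In untreated cells the receptor set differed between the lines mainly at its ends: EGFR was lower and ERBB4 far higher in PEO4 than in PEO1, in both sets. EGFR (chromosome 7, 55019017 to 55211628, GRCh38) was at 424, 438 and 402 CPM in PEO1 A and at 70.8, 86.1 and 77.9 CPM in PEO4 A. In the second set it was at 476, 512 and 497 CPM in PEO1 BRCA+ and at 91.4, 128 and 83.2 CPM in PEO4 B. The lines did not overlap in either set. Of all genes, 33.3% lay higher in PEO4 without overlap and 34.6% lower in the first set, and 33.8 and 34.7% in the second. The log2 fold change of PEO4 over PEO1 was -2.43 ± 0.09 in the first set (edgeR adjusted p = 2.99e-10) and -2.30 ± 0.13 in the second (edgeR adjusted p = 2.64e-10), which is 5.39-fold and 4.92-fold lower.

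ERBB4 (chromosome 2, 211375717 to 212538841), a receptor for the neuregulins, was near absent from PEO1. In PEO4 A it reached 206, 135 and 163 CPM against 0.335, 0.214 and 0.132 CPM in PEO1 A, where these levels rest on 16, 8 and 7 counts. In the second set it was at 26.6, 21.5 and 23.4 CPM in PEO4 B against 1, 2 and 7 counts in the libraries of PEO1 BRCA+. The ratio of pooled counts was 789 in the first set, with a 95% interval of 556 to 1161, and 163 in the second, with an interval of 88.2 to 340, both intervals covering counting error only. The fitted log2 fold changes were 9.53 ± 0.27 and 7.30 ± 0.25 (edgeR adjusted p = 4.17e-09 and 4.45e-18), and without the third untreated library of PEO1 BRCA+ the second was 8.40. The SE of the second is narrower than its counting interval and understates the error.

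ERBB2 and ERBB3, the receptor without a ligand and the partner with a weak kinase, differed less. ERBB2 (chromosome 17, 39687914 to 39730426) was at 289, 284 and 272 CPM in PEO1 A and 345, 371 and 414 CPM in PEO4 A, and at 199, 221 and 199 CPM in PEO1 BRCA+ and 275, 244 and 285 CPM in PEO4 B. The lines did not overlap, but log2 fold changes of 0.42 and 0.38 were under the threshold. ERBB3 (chromosome 12, 56076799 to 56103505) overlapped between the lines of the first set, at 276, 212 and 206 CPM against 310, 249 and 277 CPM. In the second set it was at 86.9, 98.2 and 69.7 CPM in PEO1 BRCA+ and at 200, 149 and 245 CPM in PEO4 B, a log2 fold change of 1.22 ± 0.15 (edgeR adjusted p = 3.77e-06). ERBB3 was therefore called higher in PEO4 in the second set, and in the first its log2 fold change was 0.27 ± 0.12 (edgeR adjusted p = 0.0695).

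**Figure D1:**
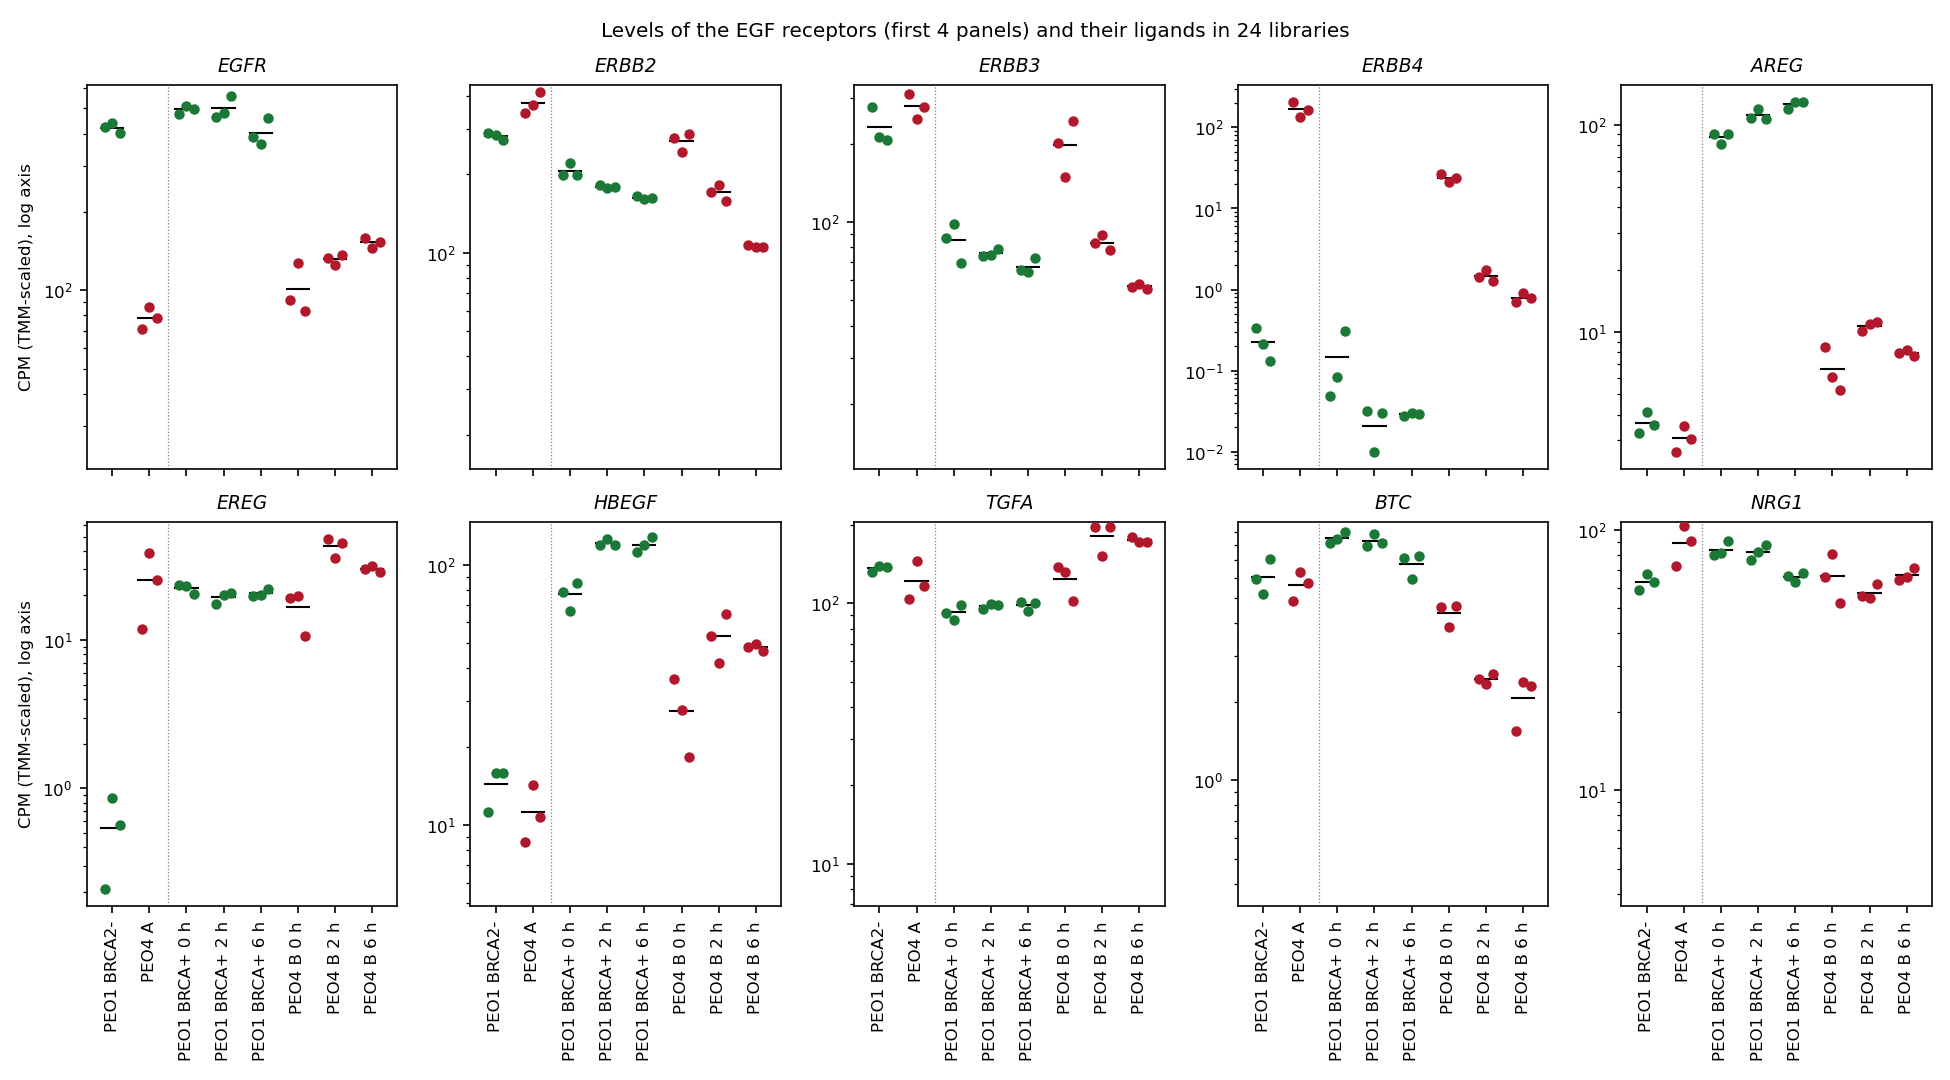
CPM (TMM-scaled, log axis) of the 4 receptors and 6 ligands in each of 24 libraries (points, green for PEO1 and red for PEO4) with the mean of 3 libraries (bar), by condition, the dotted line parting the separately scaled sets; a level of 0 is drawn at 0.01, and PEO1 A is named PEO1 BRCA2-. EGFR sits lower and ERBB4 higher in PEO4, and after PDS the red points of ERBB2, ERBB3 and ERBB4 fall below those of untreated PEO4 B.

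After PDS, 3 of the 4 receptors fell in PEO4 B, whereas EGFR did not. ERBB4 fell from 26.6, 21.5 and 23.4 CPM to 1.44, 1.73 and 1.27 CPM at 2 h and to 0.692, 0.915 and 0.778 CPM at 6 h. These levels rest on 614, 428 and 509 counts untreated, on 52, 61 and 53 at 2 h and on 29, 30 and 26 at 6 h. No treated library came near an untreated one. The log2 fold changes were -4.01 ± 0.17 (edgeR adjusted p = 5.87e-16) and -4.91 ± 0.18 (edgeR adjusted p = 7.97e-17), or 16.1-fold and 30.1-fold lower.

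ERBB3 and ERBB2 fell in PEO4 B by less and more slowly. ERBB3 went from 200, 149 and 245 CPM to 83.0, 88.9 and 77.8 CPM at 2 h and 56.3, 57.9 and 55.5 CPM at 6 h, a log2 fold change of -1.25 ± 0.15 and then -1.81 ± 0.15 (edgeR adjusted p = 3.16e-06 and 5.73e-08). ERBB2 went from 275, 244 and 285 CPM to 171, 183 and 158 CPM and then to 107, 106 and 105 CPM. The 3 times did not overlap for either gene. Of all genes in PEO4 B, 31.3% lay below every untreated library at 2 h and 32.9% above. At 6 h these shares were 35.9 and 36.3%. At 2 h the log2 fold change of ERBB2 was -0.65 ± 0.06 and under the threshold, and at 6 h it was -1.34 ± 0.06 (edgeR adjusted p = 3.37e-15). EGFR was at 91.4, 128 and 83.2 CPM untreated, 133, 126 and 137 CPM at 2 h and 159, 146 and 153 CPM at 6 h. Its log2 fold changes of 0.39 ± 0.13 and 0.60 ± 0.13 (edgeR adjusted p = 0.0144 and 6.10e-04) were under the threshold on size. It overlapped the untreated libraries at 2 h and lay above them at 6 h. The comparisons at 2 and 6 h share the untreated libraries of their line.

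Some markers fell together with these receptors in PEO4 B, and others rose. The summed level of the 7 fibroblast markers was 38.4 to 42.1 CPM untreated, 9.04 to 13.2 CPM at 2 h and 3.66 to 4.81 CPM at 6 h, against 5.50 to 7.82, 3.41 to 3.51 and 2.64 to 3.62 CPM in PEO1 BRCA+. On average COL1A1 went from 23.7 to 2.69 CPM, COL1A2 from 8.57 to 0.979 CPM and COL3A1 from 7.29 to 0.542 CPM at 6 h. DCN, LUM, PDGFRA and PDGFRB were under 1 CPM in all libraries of the second set. The summed endothelial markers went from 1.71 to 3.01 CPM untreated to 0.176 to 0.200 CPM at 6 h. MUC16, a marker of ovarian carcinoma, was at 586 CPM untreated and 49.4 CPM at 6 h in PEO4 B and at 442 and 66.4 CPM in PEO1 BRCA+. Among the other carcinoma markers of PEO4 B, EPCAM went from 425 to 547 CPM and KRT7 from 1119 to 1614 CPM at 6 h. PAX8 went from 241 to 150 CPM, WT1 from 178 to 116 CPM and CDH1 from 143 to 95.8 CPM. KRT8 went from 3072 to 2488 CPM and KRT18 from 1699 to 1536 CPM. The leukocyte marker CD68 went from 45.3 to 69.4 CPM. The part of these markers in the receptor results was not tested.

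In PEO1 BRCA+ the same treatment left EGFR, ERBB2 and ERBB3 without a call. EGFR was at 462, 478 and 557 CPM at 2 h and 388, 363 and 458 CPM at 6 h. ERBB2 was at 182, 177 and 179 CPM and then 166, 161 and 163 CPM, and ERBB3 at 74.0, 74.7 and 78.7 CPM and then 65.4, 64.3 and 72.6 CPM. ERBB2 lay below its untreated libraries at both times, with log2 fold changes of -0.20 and -0.34. So did 31.1 and 30.7% of all genes at 2 and 6 h, and 30.7 and 31.1% lay above theirs. ERBB4 was called lower at 2 and 6 h, but on 1, 0 and 1 and on 1, 1 and 1 counts against 1, 2 and 7 untreated. The ratio of pooled counts, untreated over treated, was 7.66 at 2 h, with a 95% interval of 1.63 to 71.9, and 5.11 at 6 h, with an interval of 1.31 to 28.9. Both calls were lost without the third untreated library, where the log2 fold changes were -1.60 and -1.09, and the call at 6 h also without the first library at 6 h.

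The responses of the lines were compared directly as the log2 fold change in PEO4 B less that in PEO1 BRCA+. For ERBB3 the difference was -1.09 ± 0.21 at 2 h (edgeR adjusted p = 8.83e-04) and -1.48 ± 0.21 at 6 h (edgeR adjusted p = 4.87e-05). The call at 2 h was lost without the third untreated library of PEO1 BRCA+, at -0.97, or of PEO4 B, at -0.91. For ERBB2 the difference was -0.45 ± 0.09 at 2 h and -0.998 ± 0.09 at 6 h (edgeR adjusted p = 1.84e-09), just short of the threshold on size. For ERBB4 it could not be set apart from 0, at -1.31 ± 1.45 and -2.71 ± 1.17 (edgeR adjusted p = 0.507 and 0.0607), since PEO1 BRCA+ had 10 counts untreated and no more than 3 pooled counts after PDS. EGFR differed by 0.38 ± 0.18 and 0.90 ± 0.18 (edgeR adjusted p = 0.111 and 6.87e-04), under the threshold on size at both times. On leaving out a library the value at 6 h ranged from 0.78 to 1.10.

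Between the lines after PDS, EGFR and ERBB4 were still called and ERBB3 no longer was. The log2 fold change of PEO4 B over PEO1 BRCA+ for EGFR was -1.92 ± 0.13 at 2 h and -1.40 ± 0.13 at 6 h (edgeR adjusted p = 1.47e-09 and 7.17e-08). For ERBB4 it was 5.99 ± 0.46 and 4.59 ± 0.49 (edgeR adjusted p = 1.36e-11 and 8.19e-09), with ratios of pooled counts of 76.4 (20.8 to 636) and 27.2 (9.01 to 135). Both SE are narrower than these intervals and understate the error. ERBB3, higher in PEO4 B before treatment, was at 0.13 ± 0.15 and -0.25 ± 0.15 afterwards. ERBB2 went to -0.07 ± 0.06 and -0.62 ± 0.06. At 6 h ERBB2 and ERBB3 lay below PEO1 BRCA+ in all libraries of PEO4 B, as did 38.0% of all genes, without a call for either.

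Per length, the make-up of the receptor transcripts in PEO4 B moved from ERBB2 and ERBB3 towards EGFR. Levels were divided by the summed length of all exons of a gene to give CPM per kb. EGFR took 12.6 ± 4.2% of the summed receptor level in untreated PEO4 B, 25.9 ± 2.2% at 2 h and 38.7 ± 1.1% at 6 h. Over the same times ERBB3 went from 32.9 ± 5.0% to 22.2 ± 0.6% and 19.5 ± 0.6%, and ERBB4 from 3.60 ± 0.36% to 0.354 ± 0.040% and 0.247 ± 0.039%. With the longest transcript as length the shares of ERBB4 were 2.01, 0.199 and 0.143%, and 9.71% in PEO4 A. ERBB2 held 50.9, 51.6 and 41.5%. In PEO1 BRCA+ EGFR led at all times, with 53.3, 56.7 and 53.9%. In the first set ERBB2 and EGFR took 37.2 and 36.0% in PEO1 A and their levels per length overlapped, whereas in PEO4 A ERBB2 led with 46.8%, followed by ERBB3 with 30.4%, ERBB4 with 16.5% and EGFR with 6.32%. Apart from that pair in PEO1 A, receptors next to each other in level did not overlap.

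**Figure D2:**
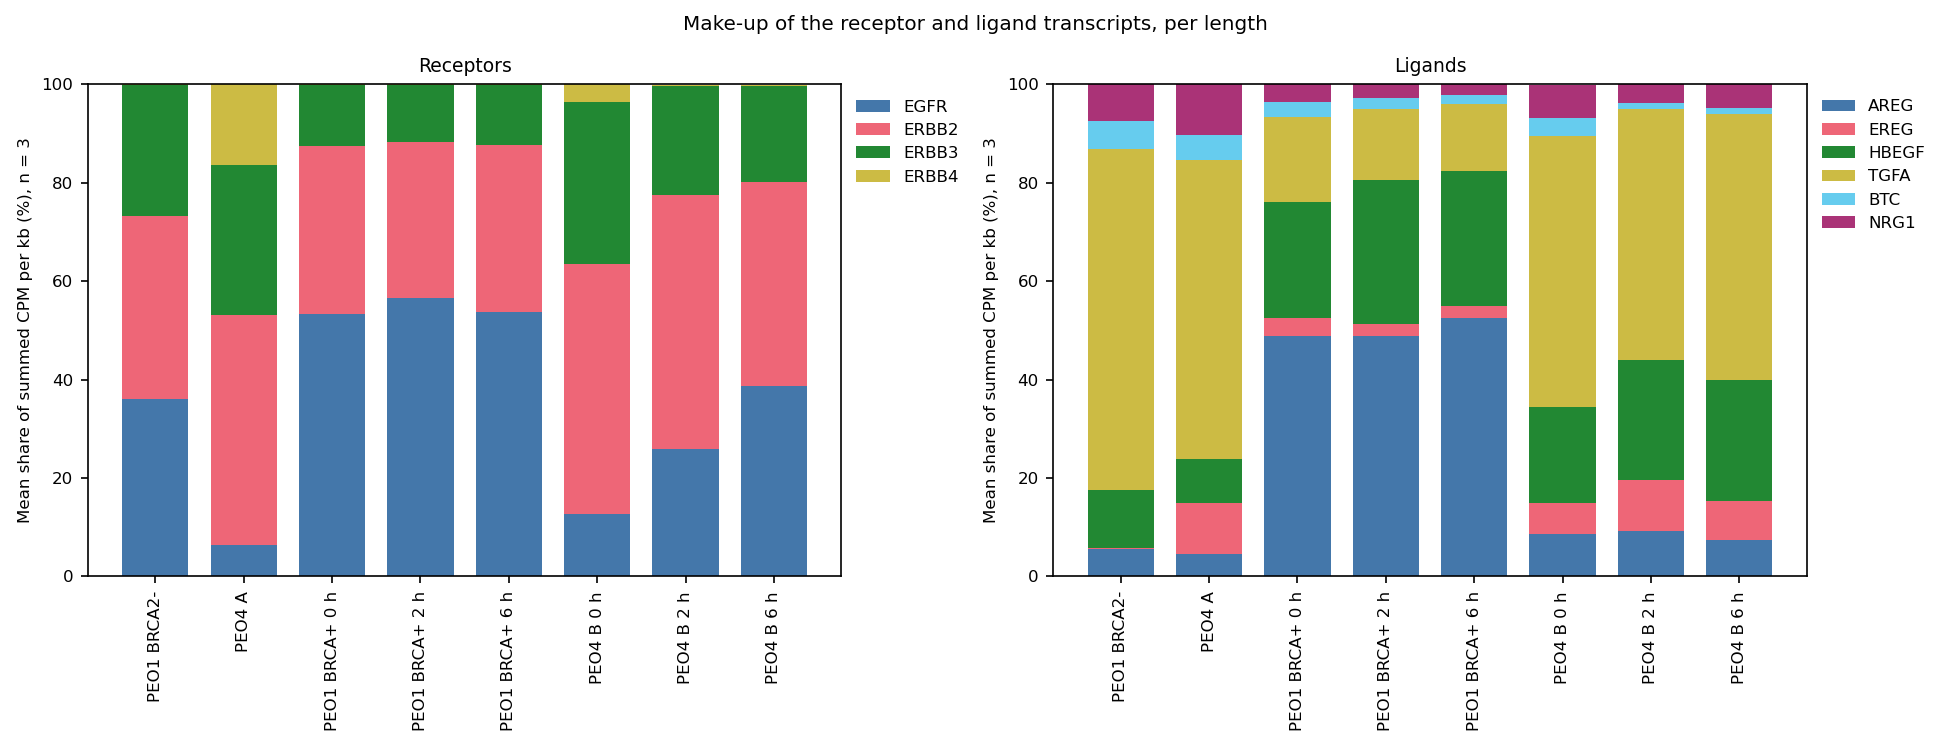
Stacked bars of each receptor's (left) and ligand's (right) mean share, in percent over 3 libraries, of the summed CPM per kb of its class in each of 8 conditions. The EGFR share grows from 12.6 to 38.7% in PEO4 B over 6 h of PDS, and TGFA leads the ligands except in PEO1 BRCA+, where AREG does.

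The ligands differed between the lines in other ways in each set. AREG (amphiregulin, chromosome 4, 74445136 to 74455005) was far higher in PEO1 BRCA+, at 90.1, 80.5 and 90.2 CPM against 8.49, 6.08 and 5.25 CPM in PEO4 B. The log2 fold change was -3.71 ± 0.10 (edgeR adjusted p = 2.03e-19), or 13.1-fold lower in PEO4 B. In the first set it was at 3.24, 4.11 and 3.55 CPM in PEO1 A and 2.65, 3.52 and 3.06 CPM in PEO4 A. Those libraries overlapped, and the log2 fold change was -0.25 ± 0.20.

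EREG (epiregulin, chromosome 4, 74365145 to 74388749) showed a difference where AREG did not. It was at 0.209, 0.854 and 0.564 CPM in PEO1 A, from 10, 32 and 30 counts, and at 11.9, 38.7 and 25.6 CPM in PEO4 A. The lines did not overlap, although the libraries of each line were widely spread, and the log2 fold change was 5.58 ± 0.69 (edgeR adjusted p = 0.00104), or 47.8-fold higher in PEO4 A. In the second set it was at 23.6, 23.1 and 20.6 CPM in PEO1 BRCA+ and 19.3, 19.9 and 10.6 CPM in PEO4 B, a log2 fold change of -0.43 ± 0.18 under the threshold.

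HBEGF (heparin-binding EGF-like growth factor, chromosome 5, 140332843 to 140346603) followed AREG, with a smaller difference. It was at 78.5, 66.7 and 85.3 CPM in PEO1 BRCA+ and 36.3, 27.6 and 18.3 CPM in PEO4 B, a log2 fold change of -1.48 ± 0.20 (edgeR adjusted p = 1.81e-05). The lines of the first set overlapped at 11.2, 15.9 and 15.9 CPM and 8.58, 14.3 and 10.7 CPM, with a log2 fold change of -0.36 ± 0.19.

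The other ligands were not called between untreated lines in either set. TGFA (transforming growth factor alpha, chromosome 2, 70447284 to 70554193) was at 132, 140 and 138 CPM in PEO1 A, 104, 145 and 116 CPM in PEO4 A, 91.6, 86.6 and 98.4 CPM in PEO1 BRCA+ and 138, 132 and 102 CPM in PEO4 B. BTC (betacellulin, chromosome 4, 74744759 to 74794523) was at 5.18 to 7.05 CPM in PEO1 A, 4.87 to 6.32 CPM in PEO4 A, 8.15 to 9.0 CPM in PEO1 BRCA+ and 3.87 to 4.65 CPM in PEO4 B. Its log2 fold change of -0.96 ± 0.14 in the second set fell just under the threshold, without overlap. NRG1 (neuregulin 1, chromosome 8, 31639222 to 32855666) was at 58.8 to 67.6 CPM in PEO1 A, 72.8 to 104 CPM in PEO4 A, 79.9 to 90.3 CPM in PEO1 BRCA+ and 52.5 to 80.8 CPM in PEO4 B, with log2 fold changes of 0.49 ± 0.12 and -0.34 ± 0.11.

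After PDS the ligands of PEO4 B moved apart, EREG upwards and BTC downwards. EREG rose from 19.3, 19.9 and 10.6 CPM to 47.9, 35.9 and 45.4 CPM at 2 h, without overlap, a log2 fold change of 1.38 ± 0.17 (edgeR adjusted p = 3.77e-06). At 6 h it was at 30.1, 31.6 and 28.9 CPM, still above every untreated library, with a log2 fold change of 0.86 ± 0.17 under the threshold. BTC was at 4.63, 3.87 and 4.65 CPM untreated, 2.44, 2.35 and 2.57 CPM at 2 h and 1.55, 2.38 and 2.30 CPM at 6 h. Its log2 fold change was -0.84 ± 0.15 at 2 h and -1.10 ± 0.15 at 6 h (edgeR adjusted p = 7.89e-07), and the call at 6 h was lost without the first library at 6 h, at -0.90.

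HBEGF, TGFA and AREG were higher after PDS in PEO4 B by less than the threshold. HBEGF was at 53.4, 41.9 and 64.5 CPM at 2 h and 48.3, 49.6 and 46.6 CPM at 6 h, above all untreated libraries, with log2 fold changes of 0.96 ± 0.20 and 0.81 ± 0.20. TGFA was at 197, 152 and 197 CPM and then 179, 173 and 172 CPM, with 0.55 ± 0.10 and 0.49 ± 0.10. AREG was at 10.1, 10.9 and 11.2 CPM at 2 h, with 0.69 ± 0.11, and at 7.92, 8.15 and 7.63 CPM at 6 h, where it overlapped the untreated libraries. NRG1 was within 0.21 of its untreated level on the log2 scale at both times.

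In PEO1 BRCA+ the ligands were not called after PDS at either time. By edgeR, 2 of the 6 had an adjusted p under 0.05 at 2 h and 4 at 6 h, all with smaller log2 fold changes than the threshold, where 52.6 and 53.0% of all genes had one. AREG was at 108, 119 and 107 CPM at 2 h and 119, 129 and 128 CPM at 6 h, above its untreated 90.1, 80.5 and 90.2 CPM, with log2 fold changes of 0.35 ± 0.08 and 0.53 ± 0.08. HBEGF was at 119, 125 and 119 CPM and 112, 119 and 128 CPM, with 0.66 ± 0.19 and 0.64 ± 0.19. EREG was at 17.6, 20.3 and 20.8 CPM and then 19.9, 20.3 and 22.2 CPM. At 6 h BTC was at 5.91 to 7.28 CPM and NRG1 at 63.1 to 68.0 CPM, both below every untreated library, with log2 fold changes of -0.33 ± 0.13 and -0.35 ± 0.11.

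Of the ligands EREG alone was called for a difference in response between the lines, and BTC and TGFA had adjusted p under 0.05 below the threshold on size. The log2 fold change in PEO4 B less that in PEO1 BRCA+ was 1.57 ± 0.24 at 2 h (edgeR adjusted p = 1.10e-04) and 0.97 ± 0.24 at 6 h (edgeR adjusted p = 0.00378), the latter under the threshold on size. For BTC it was -0.80 ± 0.19 and -0.77 ± 0.20 (edgeR adjusted p = 0.00211 and 0.00257), and for TGFA 0.47 ± 0.14 and 0.40 ± 0.14 (edgeR adjusted p = 0.0124 and 0.0249). AREG, HBEGF and NRG1 lay between -0.28 and 0.37 at both times, with adjusted p over the threshold. Between the lines, EREG was consequently higher in PEO4 B at 2 h, with a log2 fold change of 1.14 ± 0.16 (edgeR adjusted p = 1.18e-05), and at 0.54 ± 0.16 at 6 h. AREG stayed lower in PEO4 B after PDS, at -3.37 ± 0.09 and -3.99 ± 0.10, as did HBEGF, at -1.19 ± 0.19 and -1.31 ± 0.19 (edgeR adjusted p = 1.14e-19, 1.13e-20, 6.04e-05 and 2.89e-05 in that order). BTC was called lower at both times, at -1.75 ± 0.13 and -1.72 ± 0.14 (edgeR adjusted p = 1.51e-11 and 6.23e-11).

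**Figure D3:**
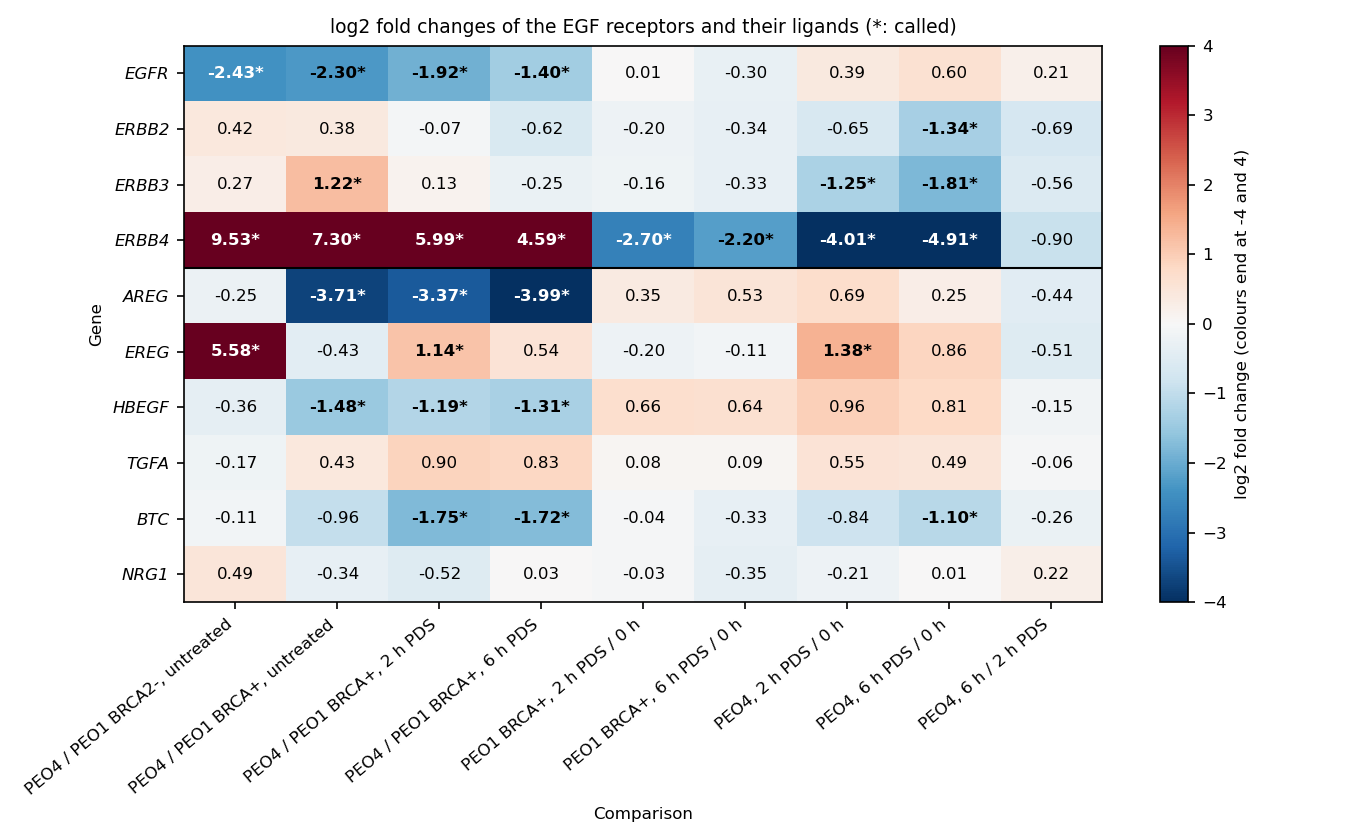
Heat map of log2 fold changes of the 10 genes (rows, receptors above the line) in 9 comparisons (columns), with the value in each cell and an asterisk where it was called. ERBB2, ERBB3 and ERBB4 are blue in the columns of PEO4 after PDS, and the asterisks of ERBB4 in PEO1 BRCA+ rest on 10 counts or fewer.

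Called members were then counted against the share of all tested genes. Between the untreated lines of the first set 3 of the 10 were called, 2 higher in PEO4 A and 1 lower, where 25.8% of all genes were called, 12.6% higher and 13.1% lower. In the second set 5 were called, 2 higher and 3 lower, against 24.8% of all genes (12.2% higher, 12.6% lower). With PDS, 6 were called between the lines at 2 h, 2 higher and 4 lower, against 26.5% (13.9% and 12.6%), and 5 at 6 h, 1 higher and 4 lower, against 23.0% (9.52% and 13.5%).

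For the response to PDS the counts were as follows. In PEO4 B, 3 were called at 2 h, 1 higher and 2 lower, against 17.4% of all genes (6.40% and 11.0%), and 4 at 6 h, all lower, against 22.6% in either direction and 16.3% lower. In PEO1 BRCA+ ERBB4 alone was called, against 7.57% of all genes at 2 h (6.39% lower) and 8.13% at 6 h (6.83% lower). Of the differences in response, 2 were called at 2 h, 1 in each direction, against 11.0% (6.10% higher and 4.92% lower), and 1 at 6 h, lower, against 14.8% (9.34% lower). From 2 to 6 h no member was called in either line. In PEO4 B 12.0% of all genes were called and 60.1% had an adjusted p under 0.05. There 6 members had an unadjusted p under 0.05 and 5 an adjusted one in edgeR, all of these 5 lower at 6 h, and DESeq2 called 0. In PEO1 BRCA+ 0.170% of all genes were called and 6.9% had an adjusted p under 0.05. There 5 members had an unadjusted p under 0.05 and 0 an adjusted one in edgeR, and DESeq2 called 0. The share of all genes with an unadjusted p under 0.05 was not counted. The median log2 fold change of the 10 genes was 0.13 in PEO4 B at 6 h, beside -0.03 over all genes.

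The depth of the untreated libraries and their ribosomal RNA moved with treatment. After all libraries of the second set were thinned to the smallest total, every call in PEO4 B after PDS remained, and in PEO1 BRCA+ ERBB4 was no longer called at 2 h. The part of ribosomal RNA in these results was not tested.

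Whether the line difference was the same in both sets was tested in a joint fit of all 24 libraries, which was chosen after seeing the data. Of the 10 genes, 4 were called, all more positive in the first set, where 15.0% of all genes were called and 6.27% in that direction. The difference in log2 fold change, first set less second, was 5.98 ± 0.58 for EREG (edgeR adjusted p = 2.20e-07) and 3.42 ± 0.17 for AREG (edgeR adjusted p = 3.57e-15). It was 2.19 ± 0.78 for ERBB4 and 1.08 ± 0.31 for HBEGF (edgeR adjusted p = 0.0257 and 0.00893). ERBB4 lost its call without the third untreated library of PEO1 BRCA+ (1.09) or the third of PEO1 A (1.87), and HBEGF without the first library of PEO1 A (0.93), the second of PEO4 A (0.87) or the third untreated one of PEO4 B (0.86). ERBB3 was at -0.99 ± 0.21 just under the threshold, whereas EGFR and ERBB2 were at -0.16 ± 0.16 and 0.01 ± 0.10. BRCA2 status of PEO1, medium and set go together in these groups and cannot be told apart. Whether library preparation also differed between the sets is not given in the sources used here.

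Ligand transcripts per length were led by TGFA except in PEO1 BRCA+. TGFA took 69.3 ± 1.9% of the summed ligand level in PEO1 A, 60.6 ± 3.1% in PEO4 A and 55.1 ± 2.5% in untreated PEO4 B. In PEO1 BRCA+ AREG took 48.8 ± 0.8%, HBEGF 23.6 ± 1.3% and TGFA 17.3 ± 0.4%. In PEO4 B AREG held 8.70 ± 1.0%, 9.14 ± 1.47% and 7.33 ± 0.15% over the 3 times and EREG 6.21 ± 1.03%, 10.4 ± 0.6% and 8.05 ± 0.28%. Neighbours in the order overlapped as follows: BTC and AREG in PEO1 A, EREG and NRG1, NRG1 and HBEGF, and BTC and AREG in PEO4 A, NRG1 and EREG in untreated PEO1 BRCA+ and at 2 h, EREG and BTC in PEO1 BRCA+ at 2 h, AREG and NRG1 as well as NRG1 and EREG in untreated PEO4 B, and EREG and AREG in PEO4 B at 2 h. With the longest transcript as length the order of the ligands changed in 3 of 8 groups and that of the receptors in 0.

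AREG, EREG and BTC lie close together on chromosome 4, with EPGN (epigen, a further EGF ligand) beside EREG and with MTHFD2L and PARM1 as the outer neighbours. The neighbours were not called alike. PARM1, which encodes a mucin-like membrane protein, was at 34.4, 30.6 and 38.8 CPM in PEO1 BRCA+ and 2.16, 2.26 and 0.875 CPM in PEO4 B, a log2 fold change of -4.29 (edgeR adjusted p = 1.12e-12), and was lower in PEO4 A too, at -2.65 (edgeR adjusted p = 1.68e-06). After PDS it rose in PEO4 B to 11.5, 7.87 and 10.2 CPM at 2 h and 8.37, 6.93 and 7.15 CPM at 6 h, with log2 fold changes of 2.48 and 2.09 (edgeR adjusted p = 1.34e-08 and 1.43e-07). In PEO1 BRCA+ the values were -0.01 and -0.26, and the responses differed by 2.49 and 2.35 (edgeR adjusted p = 6.59e-07 and 1.13e-06).

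MTHFD2L, a mitochondrial folate enzyme, was lower in PEO4 B than in PEO1 BRCA+ at -1.60 (edgeR adjusted p = 6.58e-11) and at 0.37 and 0.74 after PDS in PEO4 B, under the threshold. EPGN had 10 to 18 counts in the libraries of PEO1 A and 0 in all those of PEO4 A, at least 12.8-fold lower when 3 counts are allowed over the group. In the second set it had 35 pooled counts in untreated PEO1 BRCA+ and 1 in PEO4 B. Of these 6 genes in PEO4 B after PDS, EREG was called higher at 2 h, PARM1 higher at 2 and 6 h and BTC lower at 6 h. AREG, MTHFD2L and EPGN were not called. Of all genes, 17.4% were called there at 2 h and 22.6% at 6 h.

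**Figure D4:**
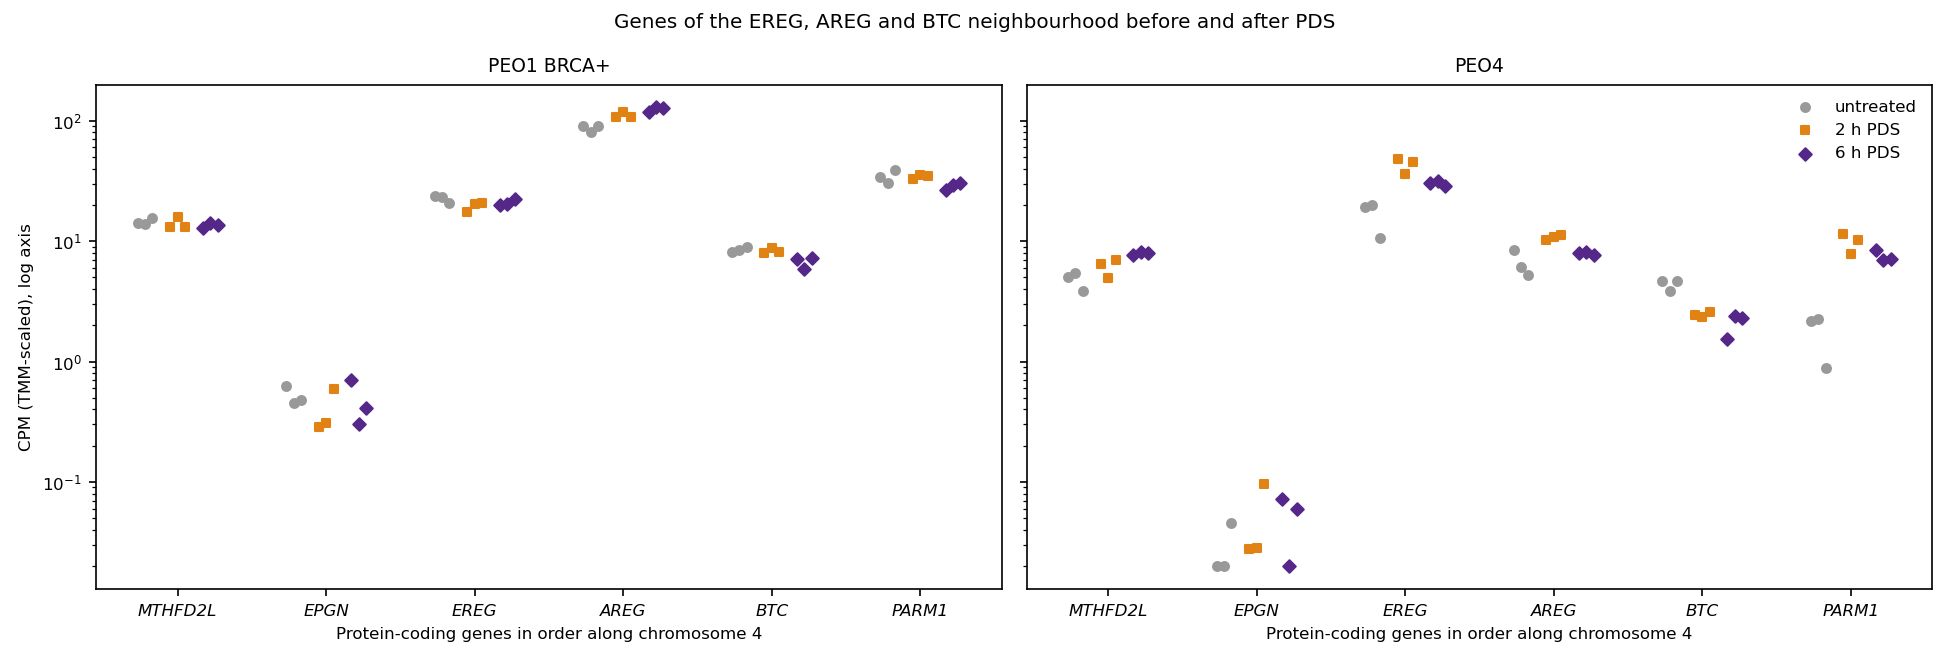
CPM (TMM-scaled, log axis) of 6 protein-coding genes in their order along chromosome 4, in PEO1 BRCA+ (left) and PEO4 B (right), with a point per library, untreated (grey circles) and after 2 h (orange squares) or 6 h (purple diamonds) of PDS; levels of 0 are drawn at 0.02. EREG and PARM1 of PEO4 B are higher in all treated than in all untreated libraries, while BTC is lower.

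Promoter sequences, 250 bases before the start of a gene in RefSeq (GRCh38.p14), were taken for 8 of the 10 genes. For ERBB2, ERBB4 and TGFA the RefSeq start lies inside the gene as placed above by GENCODE, so bases of those windows can fall within the gene. ERBB3 and NRG1 had no entry. Since PDS binds G4s, 4 runs of GGG parted by 1 to 7 bases were searched on both strands, which 23.5% of all 35116 promoters of this length hold. EGFR, ERBB4, HBEGF, TGFA and BTC hold them, and ERBB2, AREG and EREG do not. At 6 h in PEO4 B, where 16.3% of all genes were called lower, ERBB4 and BTC with this motif and ERBB2 without it were called lower, and EGFR, HBEGF and TGFA with it and AREG and EREG without it were not called. The promoters of ERBB4 (chr2:212538803-212539052, minus strand), BTC (chr4:74794524-74794773, minus strand) and HBEGF (chr5:140346604-140346853, minus strand) are shown, the first pair from genes that fell in PEO4 B and the last from a gene that did not, with the stretch of runs in capitals. Sequences run 5′ to 3′ on the strand of the gene, and in ERBB4 the runs are on the other strand and read as CCC.
ERBB4: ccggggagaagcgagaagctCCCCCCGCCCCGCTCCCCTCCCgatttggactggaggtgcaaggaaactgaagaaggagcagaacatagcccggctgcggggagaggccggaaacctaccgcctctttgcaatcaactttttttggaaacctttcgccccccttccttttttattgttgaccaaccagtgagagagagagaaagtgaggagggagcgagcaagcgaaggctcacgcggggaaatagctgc
BTC: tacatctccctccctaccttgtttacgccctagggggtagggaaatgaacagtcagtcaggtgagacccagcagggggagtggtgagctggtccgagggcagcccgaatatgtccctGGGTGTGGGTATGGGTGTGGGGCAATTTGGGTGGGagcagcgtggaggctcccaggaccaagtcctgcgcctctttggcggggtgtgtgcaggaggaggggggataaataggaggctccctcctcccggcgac
HBEGF: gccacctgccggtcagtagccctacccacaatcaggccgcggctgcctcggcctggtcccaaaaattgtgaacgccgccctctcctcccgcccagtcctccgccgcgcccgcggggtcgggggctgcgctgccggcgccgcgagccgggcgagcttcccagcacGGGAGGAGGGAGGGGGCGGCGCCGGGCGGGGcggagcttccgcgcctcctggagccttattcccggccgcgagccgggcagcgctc

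EREG, called higher in PEO4 B at 2 h, and its neighbour AREG, which was not, hold TATAAA at -32 and -29. Anywhere in this window 10.7% of all promoters hold it. Both also hold TGACG, which is part of the cyclic AMP response element and occurs in 21.2%. In AREG it lies within the whole palindrome TGACGTCA at -65, which 1.65% of promoters hold, and in EREG it stands at -125 without the rest. The motif TGANTCA of AP-1 was found in ERBB2 alone among the 8 (6.57% of promoters), GGGCGG in EGFR, ERBB4, AREG, HBEGF and TGFA (42.6%) and the CArG box in none of them (1.16%). Both strands were searched for every motif. The promoters of EREG (chr4:74364895-74365144, plus strand) and AREG (chr4:74444886-74445135, plus strand) are shown to set these letters side by side, with TGACG and TATAAA on either strand in capitals.
EREG: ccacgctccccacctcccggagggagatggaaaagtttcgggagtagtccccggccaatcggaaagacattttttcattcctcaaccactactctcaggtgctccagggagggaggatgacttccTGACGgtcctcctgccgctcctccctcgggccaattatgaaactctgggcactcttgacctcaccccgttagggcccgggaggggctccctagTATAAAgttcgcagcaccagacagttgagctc
AREG: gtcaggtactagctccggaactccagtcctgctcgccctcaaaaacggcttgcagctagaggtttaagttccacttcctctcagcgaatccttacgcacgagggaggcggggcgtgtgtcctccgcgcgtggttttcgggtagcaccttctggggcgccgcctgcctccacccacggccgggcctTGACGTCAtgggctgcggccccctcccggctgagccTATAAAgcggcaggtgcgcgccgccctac

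Other genes of the pathway were read from lists chosen with earlier results of these data known. Of the 5 other ligands, NRG2, NRG3 and EPGN were called lower in untreated PEO4 B than in PEO1 BRCA+. Of all genes, 12.6% were called lower there. NRG2 was at 13.4, 11.3 and 12.9 CPM against 1.86, 3.77 and 0.967 CPM, a log2 fold change of -2.53 (edgeR adjusted p = 4.28e-08). In the first set NRG2 was at 1.30, 0.827 and 1.84 CPM in PEO1 A and 2.06, 2.27 and 2.45 CPM in PEO4 A, with a log2 fold change of 0.75 under the threshold, and the sets differed by 3.22 (edgeR adjusted p = 2.11e-07). NRG3 had 30 pooled counts against 5. EGF itself was low, at 1.26, 1.71 and 1.34 CPM in untreated PEO4 B, 2.50, 2.75 and 1.85 CPM at 2 h and 0.739, 0.763 and 0.988 CPM at 6 h, and fell from 2 to 6 h with a log2 fold change of -1.51 (edgeR adjusted p = 2.88e-06). NRG4 was at 1.92, 1.84 and 1.68 CPM in PEO4 B at 2 h against 1.01, 1.01 and 0.656 CPM in PEO1 BRCA+, a log2 fold change of 1.02 (edgeR adjusted p = 1.15e-04).

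Of 6 genes of ligand shedding, ADAM17, the protease that releases most of these ligands, was higher in untreated PEO4 B at 1.11 (edgeR adjusted p = 2.05e-15). ADAM12 was lower, with 2 pooled counts against 134. Of all genes, 12.2% were called higher and 12.6% lower there, and 22.6% were called in PEO4 B after 6 h of PDS. After 6 h of PDS in PEO4 B, ADAM12 rose to 31 pooled counts, a ratio of 9.28 with a 95% interval of 2.36 to 80.0, and RHBDF1, a cofactor of ADAM17, fell from 52.8, 53.1 and 56.4 CPM to 25.7, 23.5 and 23.8 CPM (log2 fold change -1.15, edgeR adjusted p = 2.23e-13).

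Of 10 receptor attenuators, LRIG1, which promotes degradation of the receptors, was lower in PEO4 in both sets, at 28.4, 21.3 and 22.6 CPM against 146, 143 and 130 CPM in the first and 13.7, 11.1 and 11.8 CPM against 107, 98.4 and 112 CPM in the second. The log2 fold changes were -2.53 and -3.11 (edgeR adjusted p = 1.65e-09 and 4.42e-20). Of the 10 attenuators, 3 were called lower in the first set and 1 in the second, where 13.1 and 12.6% of all genes were. ERRFI1, an inhibitor that binds the kinase domain of EGFR, rose in PEO4 B from 61.5, 73.2 and 59.6 CPM to 244, 255 and 231 CPM at 2 h and was at 120, 118 and 116 CPM at 6 h. Its log2 fold change was 1.91 at 2 h (edgeR adjusted p = 1.58e-16) and 0.87 at 6 h, and in PEO1 BRCA+ it was at 0.01 and -0.11. The responses differed by 1.89 at 2 h (edgeR adjusted p = 8.53e-13). ERRFI1 was the 1 attenuator of 10 called in PEO4 B at 2 h, where 17.4% of all genes were called and 6.40% higher.

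Kinases and adaptors below the receptors were read against the same share of all genes, 17.4 and 22.6% called in PEO4 B at 2 and 6 h. Of 15 tested adaptors and members of the RAS-MAPK core, GAB1, a docking protein of EGFR, was the 1 called after PDS in PEO4 B, at -1.41 and -1.03 (edgeR adjusted p = 6.80e-08 and 3.34e-06). The 16th gene of this list, HRAS, had 2 counts in a single library and 0 in the others, and was named after its values were seen. In PEO1 BRCA+ none of the 15 was called. Of 11 genes of the PI3K-AKT core, PIK3R3 was called lower in PEO1 BRCA+ at both times, where 6.39 and 6.83% of all genes were. PIK3R2, a regulatory subunit, fell in PEO4 B at 6 h from 86.8, 78.7 and 104 CPM to 26.0, 27.8 and 28 CPM (log2 fold change -1.72, edgeR adjusted p = 1.87e-13). The medians of these lists in PEO4 B at 6 h were 0.14 and -0.05, beside -0.03 over all genes.

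Of 10 genes that respond to MAPK signalling, DUSP4 rose and PHLDA1 and EPHA4 fell in PEO4 B after 6 h of PDS. The other 7 were not called. Of all genes, 22.6% were called in PEO4 B at 6 h, and 16.3% were called lower. EPHA4 was named after its values were seen. DUSP4, a phosphatase of MAP kinases, went from 28.6, 38.9 and 13.7 CPM to 134, 151 and 116 CPM at 2 h and 131, 133 and 128 CPM at 6 h, with log2 fold changes of 2.31 and 2.27 (edgeR adjusted p = 1.72e-06 and 1.53e-06). PHLDA1 went from 598, 433 and 558 CPM to 130, 112 and 130 CPM and then 166, 167 and 162 CPM, with -2.09 and -1.68 (edgeR adjusted p = 9.07e-14 and 1.44e-12). In PEO1 BRCA+ none of the 10 was called at 6 h, where 4 had an adjusted p under 0.05 in edgeR with a positive and 1 with a negative log2 fold change. Of all genes, 53.0% had an adjusted p under 0.05 in that comparison. The list thus moved in both directions, with a median of -0.20 in PEO4 B at 6 h.

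**Figure D5:**
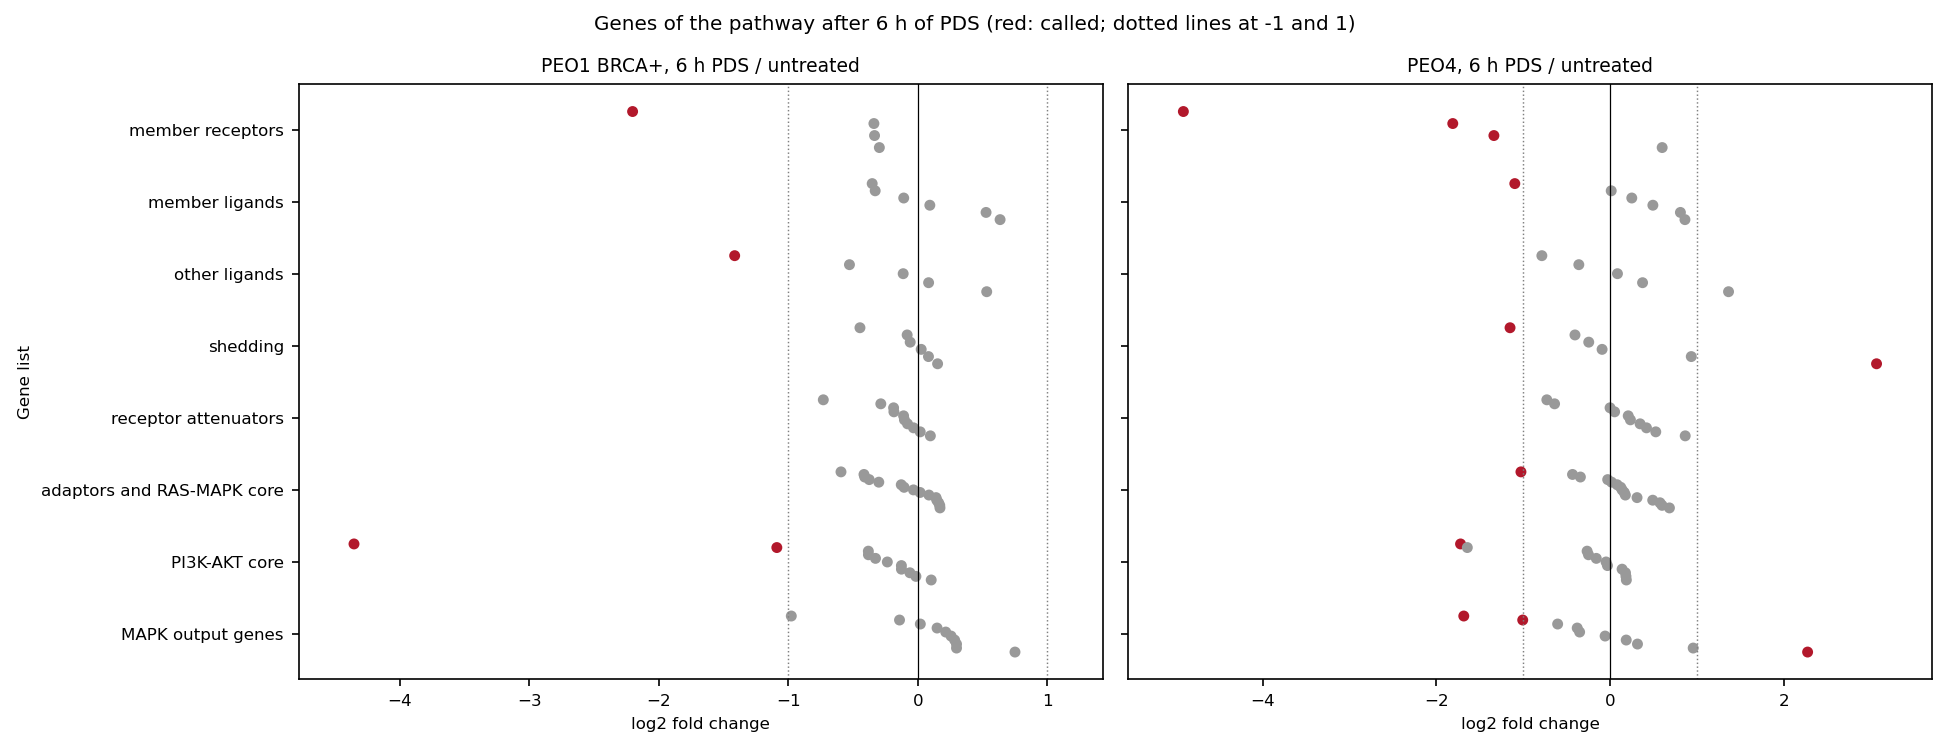
The log2 fold change (horizontal axis) after 6 h of PDS of each tested gene of 8 lists of the pathway (rows, 1 point per gene, red where called) in PEO1 BRCA+ (left) and PEO4 B (right), with dotted lines at -1 and 1. In PEO4 B, 3 of the 4 receptors and 1 of the 6 ligands are red, all to the left of -1.

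The genes most like each member over the 18 libraries of the second set were named as a description, since these libraries share lines, times and depth. By Pearson's r of log2 CPM, EGFR was closest to CCDC3 (0.99), ERBB2 to KIAA0556 and NEURL1B (both 0.98), ERBB3 to ALDH3B2 (0.98) and DTX3L (0.97), and ERBB4 to PITX1 and AATK (both 0.99). AREG was closest to MAPK11 and G3BP2 (both 0.99), EREG to ENDOD1 (0.96) and ZADH2 (0.95), HBEGF to RFC4 (0.98) and TRMT6 (0.97), TGFA to MRPL40 and SLC2A1 (both 0.97), BTC to SLC27A2 and CPNE2 (both 0.98) and NRG1 to PPP2R2C (0.90) and PPM1L (0.88).

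Some members share their position with other annotated genes, so reads could be assigned to either. EGFR overlaps EGFR-AS1 on the opposite strand, which had 0 to 10 counts in the first set, at most 0.0659% of the EGFR count, and 106 to 706 in the second, 3.02 to 5.87%. This gene was named after its values were seen, and whether reads were counted by strand is not given in the sources used here. ERBB2 overlaps PGAP3 and MIEN1 on the opposite strand and ERBB3 an unnamed gene on its own strand. TGFA overlaps TGFA-IT1, and NRG1 overlaps NRG1-IT1 and NRG1-IT3, on the same strand. AREG, EREG, HBEGF and BTC overlap no other gene.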

How the data were processed

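RNA of cultured cells was sequenced as paired-end polyA libraries. Per the labels, the authors processed reads with FastQC, fastp, STAR (hg38) and featureCounts and deposited raw counts per gene in 2 tables, without normalization. Versions, the annotation and the strand setting are not given in the sources used here, nor is the library kit of the second set. Counts were tested with edgeR 4.0.16 in R 4.3.3 (TMM, filterByExpr with a minimum count of 10 and a minimum total of 15, robust quasi-likelihood F test, a mean per condition), separately for each table, and p-values were adjusted by Benjamini-Hochberg across each table's tested genes. Log2 CPM used a prior count of 4. DESeq2 1.42.0, other scalings, no filter, thinning, a replicate block and leaving out each library were alternatives. The joint fit of both tables was added after seeing the data. Lengths and positions came from GENCODE 44 on GRCh38, which held 25763 of the symbols. Scripts were tested on simulated data.

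The members and lists were chosen with earlier results of these data known. Genes named are the 10 members, all other ligands, at most the 2 called genes of largest change per further list and comparison, the neighbours of AREG, EREG and BTC, and the 2 genes most like each member. Some genes that this rule names are not reported here. Intervals cover counting error only, and PCR copies were not told apart from molecules. Replicates are biological per the labels.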

Additional observations from a re-analysis of the deposited data

Results flagged for a closer look

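The responses to PDS of PEO4 B and PEO1 BRCA+ were compared by a direct test of the difference in log2 fold change. In edgeR 5 members at 2 h and 6 at 6 h had an adjusted p under 0.05, where 37.3 and 47.4% of all genes had one. The threshold on size was also passed by 2 members at 2 h and 1 at 6 h, against 11.0 and 14.8% of all genes. For ERBB3 the difference was -1.09 ± 0.21 at 2 h and -1.48 ± 0.21 at 6 h (SE), and for EREG it was 1.57 ± 0.24 at 2 h. The call of ERBB3 at 2 h was lost without the third untreated library of PEO1 BRCA+ (-0.97) or of PEO4 B (-0.91). The difference between PEO4 and PEO1 also differed between the sets, first less second, by 2.19 for ERBB4, 3.42 for AREG, 5.98 for EREG and 1.08 for HBEGF. Set, medium and the BRCA2 status of PEO1 cannot be told apart there, and whether library preparation also differed is not given.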

How the results depend on the processing

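ERBB4 had 0 to 7 counts in each library of PEO1 BRCA+, which limits what can be said of it there. It lost its call in PEO1 BRCA+ at 2 h after thinning (-1.86), and in the comparison of the sets with only the groups compared (2.22) and after thinning (1.79). Members were also counted with an adjusted p alone, without a threshold on size, with the share of all genes in brackets. In response 5 and 6 members differed at 2 and 6 h (37.3 and 47.4%). Between the lines 5, 10 and 8 differed in the first set, the untreated second set and at 6 h (61.6, 68.6 and 68.6%). Between the sets 8 differed (42.6%). After PDS there were 4 and 6 in PEO1 BRCA+ (52.6 and 53.0%) and 9 and 8 in PEO4 B (65.3 and 69.8%). From 2 to 6 h in PEO4 B there were 5 (60.1%). At 6 h the number that differed in response was 2 with DESeq2 size factors, library totals or upper quartile scaling and 3 with the DESeq2 Wald test. With only the groups compared 0 were called in PEO1 BRCA+ at 2 or 6 h, and after thinning 0 at 2 h.

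Leaving out each library in turn gave 1 to 2 and 1 to 4 members that differed in response at 2 and 6 h. Between the lines it gave 3 to 3 in the first set, and 5 to 5, 6 to 7 and 5 to 5 in the second at 0, 2 and 6 h, and between the sets 3 to 5. After PDS it gave 0 to 1 at both times in PEO1 BRCA+ and 3 to 4 and 3 to 5 in PEO4 B, and from 2 to 6 h 0 to 0 and 0 to 1. Replicate numbers gave no regular sign of pairing. No pair of groups had every correlation of deviations over 0.1, and 0 to 3 of 3 samples correlated best with their own number. With 3 replicates this cannot show that samples were not paired. The replicate block left the number of members called as it was in every comparison, 3 in the first set and 5, 6 and 5 between the lines of the second.

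Direction turned in 39 values, none of them called. EGFR at 2 h in PEO1 BRCA+ was at -0.14 with library totals, -0.0024 after thinning and -0.067 with upper quartile scaling. With library totals TGFA in PEO1 BRCA+ was at -0.066 and -0.052 at 2 and 6 h. From 2 to 6 h in PEO1 BRCA+, thinning gave -0.81 for ERBB4 and 0.0087 for HBEGF. NRG1 at 6 h in PEO4 B was at -0.0059 and -0.0063 with DESeq2 size factors and the Wald test, -0.14 with library totals, -0.0067 with only the groups compared, -0.017 after thinning and -0.098 with upper quartile scaling. The ranges on leaving out a library were -0.21 to 0.015 for BTC between the lines of the first set, -0.020 to 0.057 for NRG1 between the lines at 6 h, and at 2 h in PEO1 BRCA+ -0.065 to 0.075 for EGFR, -0.076 to 0.0098 for BTC and -0.073 to 0.032 for NRG1. From 2 to 6 h in PEO1 BRCA+ they were -0.074 to 0.88 for ERBB4, -0.072 to 0.024 for HBEGF and -0.0090 to 0.046 for TGFA, and in PEO4 B -0.29 to 0.021 for HBEGF and -0.17 to 0.0060 for TGFA. They were -0.13 to 0.18 for NRG1 at 6 h in PEO4 B, -0.048 to 0.43 for HBEGF in the difference in response at 6 h, and -0.28 to 0.042 for EGFR and -0.062 to 0.074 for ERBB2 between the sets. The cause was not tested.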
